A study of Homo sapiens with 6 samples.

Results

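The aryl hydrocarbon receptor (AHR) and the genes around it were examined in MDA-MB231 cells, a human triple-negative breast cancer line, with and without a stable shRNA against Ror1. The 9 genes are the receptor AHR, its partners ARNT and ARNT2, the repressor AHRR, the cytochrome P450 targets CYP1A1, CYP1A2 and CYP1B1, the target TIPARP and the target NQO1. They were chosen by name, with earlier results of this comparison known, and each matched 1 of the 57445 identifiers in the deposited table. All 6 libraries were used, 3 from cells with a non-silencing shRNA (shCTL) and 3 from cells with a Ror1 shRNA (shRor1). Both hairpins were delivered by lentivirus in the pGIPZ vector, and both populations were selected with 2 µg/ml puromycin. A single shROR1 vector is named, and whether the cells were pools or clones is not given in the sources used here. The sample labels call the control an empty vector, while the methods of the study name a non-silencing shRNA. The header of the control columns holds the word DMSO, a common solvent, and the header of the shRor1 columns does not. No AHR ligand is named as a treatment of either population, and an effect of the solvent and of the hairpin cannot be told apart from these columns.

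AHR is a ligand-activated transcription factor of the bHLH-PAS family. Without a ligand it is held in the cytoplasm by HSP90 and p23. With a ligand it moves to the nucleus, pairs with ARNT and binds short DNA elements near genes for xenobiotic metabolism, of which CYP1A1 is the classic example. AHRR and TIPARP are induced by the receptor and dampen it in turn, and NQO1 is shared with the antioxidant factor NRF2. In breast cancer cells, CYP1B1 is known as an AHR target with a basal level that can be high without added ligand.

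The DNA elements bound by AHR and ARNT share the core GCGTG, and a longer form, TNGCGTG, contains it. Both were searched on either strand, so that a match can also read as the reverse complement. The RefSeq promoter table (GRCh38.p14), with 250 bases before to 50 after each start, held 10 windows for 7 of the 9 genes and no entry for ARNT2 and CYP1B1. The core was in 6 of these 10 windows, against 36.5% of all 35116 windows, and the longer form was in 2, against 5.51%. In the 250 bases before the start alone, the core was in 4 of the 10 windows (32.2% of all) and the longer form in 1 (4.52% of all). These stretches are shown because each holds core matches before a start of 1 of 3 targets, printed 5′ to 3′ on the strand of the gene with the core in capitals. They are, in order, chr15:74725561-74725605 (minus strand), chr5:321664-321708 (plus strand) and chr3:156674362-156674472 (plus strand), all in GRCh38.p14.
CYP1A1: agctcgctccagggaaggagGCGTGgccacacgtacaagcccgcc
AHRR: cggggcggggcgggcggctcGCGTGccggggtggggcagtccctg
TIPARP: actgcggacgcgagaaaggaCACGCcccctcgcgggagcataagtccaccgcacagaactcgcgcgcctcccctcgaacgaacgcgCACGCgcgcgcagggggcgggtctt

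The first base of the match lies at position -57 from the start in CYP1A1 and at -30 in AHRR, while the TIPARP stretch holds 2 matches, at -208 and -142. A second start of AHRR has 2 matches of its own, at -247 and -42, in a stretch that is not printed. TIPARP has other starts too, and their windows held no match of the core. The window was then widened to the 1500 bases of GRCh37 before the canonical start for the same 7 genes. CYP1A1 held 5 matches of the longer form, at positions -1385, -1061, -986, -898 and -503, and ARNT held 2, at -1176 and -633. AHRR held 1, at -32, which takes in the core printed above for AHRR at -30 and is not a separate element. AHR, CYP1A2, TIPARP and NQO1 held none. Of 19867 protein-coding genes, 26.5% had at least 1 match in such a window, and 4 had 5 or more, CYP1A1 among them, which is 0.0201%. This share is a description only, because the wider window was chosen after seeing the data. In its RefSeq promoter window CYP1A1 held no match of the longer form. The stretch that holds 3 of the CYP1A1 matches, chr15:75018751-75018940 of GRCh37 on the minus strand, is shown with the longer form in capitals.
CYP1A1 upstream: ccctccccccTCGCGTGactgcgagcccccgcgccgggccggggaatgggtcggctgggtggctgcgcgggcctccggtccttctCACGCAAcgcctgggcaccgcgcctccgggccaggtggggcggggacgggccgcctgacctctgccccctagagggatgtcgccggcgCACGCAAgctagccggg

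A match is a string of letters and no measured binding, and no binding was measured here.

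**Figure D1:**
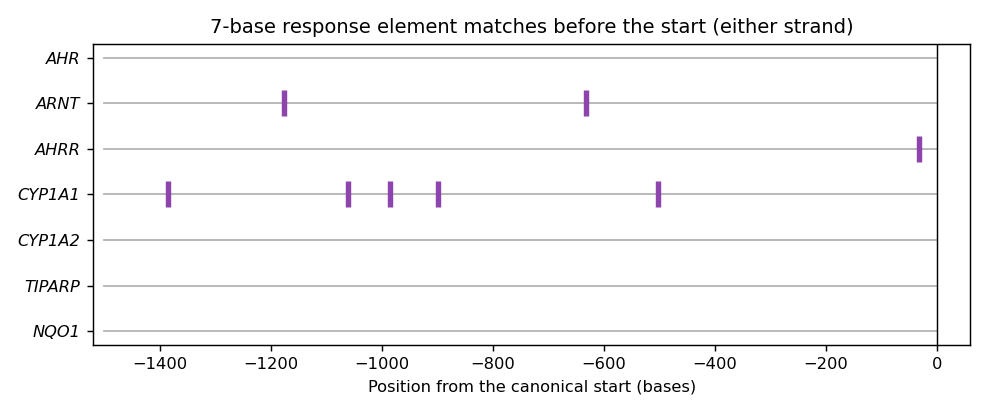
Matches of the longer response element on either strand in the 1500 bases before the canonical start (GRCh37) of the 7 genes with a RefSeq promoter. The x axis is the position from the start in bases, each line is a gene and each bar 1 match. CYP1A1 has 5 bars, ARNT 2 and AHRR 1.

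The deposited values are TPM, transcripts of a gene per 1000000 transcripts, scaled for length, so levels of different genes can be compared. The number of genes at 1 TPM or more was from 16036 to 16597 in the shCTL and from 16317 to 17033 in the shRor1 libraries. The columns carry no replicate number, and libraries are named by their order in the table. ROR1, the targeted gene, had 15.42, 13.49 and 20.56 TPM in shCTL and 9.34, 11.93 and 14.85 TPM in shRor1, with overlapping groups, a log2 fold change of -0.43 and an adjusted p of 0.984 (limma). This difference shrank to -0.27 where the first shRor1 library was left out and to -0.26 where the third shCTL library was. It grew to -0.58 without the third shRor1 library and to -0.55 without the second shCTL library. After quantile normalization it was -0.49, and after median ratio scaling -0.50. For the knockdown the study shows its own western blot of Ror1 protein in shCTL and shRor1 cells, and the RNA values here do not measure protein. Of the 4 markers listed for this line (VIM, CD44, AXL and CAV1), each had at least 347 TPM in every library, and the hormone receptor genes ESR1 and PGR had at most 0.21 TPM. ERBB2 had from 26.6 to 34.9 TPM and EPCAM from 12.6 to 15.8 TPM. The 5 markers of other cells that were matched summed to between 9.46 and 17.3 TPM in shCTL and between 9.16 and 14.8 TPM in shRor1, most of it COL1A1, and PTPRC, CD3E and ALB had at most 0.39 TPM each.

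NQO1, a quinone reductase, had by far the highest level of the 9 genes, with a mean of 477 TPM over the 6 libraries. CYP1B1, TIPARP and AHR followed with means of 41.6, 29.1 and 27.9 TPM, and ARNT with 20.4 TPM. Neighbours from CYP1B1 to ARNT had overlapping ranges over the libraries, while NQO1 lay apart above them. ARNT2, CYP1A1 and AHRR formed a lower group with overlapping ranges between neighbours, at means of 5.36, 4.02 and 2.62 TPM. CYP1A2, best known from liver, had 0.43 TPM and lay apart below. A gene was tested if 3 libraries or more had it at 1 TPM or higher, which left 16554 genes. Of these, 98.4% had no higher mean than NQO1, 75.6% no higher mean than CYP1B1 and 28.8% no higher mean than CYP1A1. The other 8 genes passed this filter, and CYP1A2 was not tested.

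**Figure D2:**
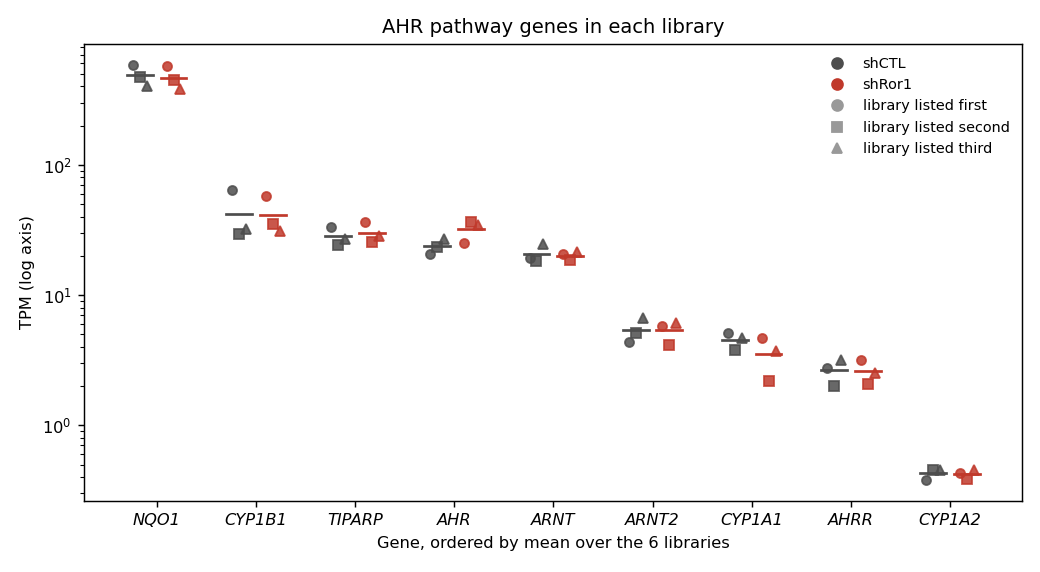
TPM of the 9 genes in each library on a log axis, with genes ordered by their mean. Points are single libraries, the marker shape gives the order in the table, and horizontal bars are group means (n = 3). NQO1 lies between 382 and 586 TPM and CYP1A2 between 0.38 and 0.45 TPM, and the shCTL and shRor1 points overlap for every gene.

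The comparison of shRor1 with shCTL asks which transcripts differ when Ror1 is knocked down. Log2 fold changes were taken on the log2(TPM + 1) scale as shRor1 minus shCTL with limma, a scale that understates changes of genes with few TPM. Because the genes were chosen with this contrast known, their values are a description and no p is given for any of them. With limma and Benjamini-Hochberg adjustment, 0 of the 8 genes tested had an adjusted p below 0.05, and the share was 0% over all 16554 genes. Without adjustment, 472 genes or 2.85% of those tested had p below 0.05. The groups did not overlap for 7.78% of all genes tested and for 0 of the 8. The median log2 fold change was -0.01 over the 8 genes and 0.05 over all genes tested.

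AHR itself (ENSG00000106546.8, canonical transcript on chromosome 7 of GRCh37 from 17338276 to 17385771, plus strand) had 20.83, 23.52 and 26.72 TPM in shCTL and 25.11, 36.29 and 34.71 TPM in shRor1. The second and the third shRor1 libraries lay above all controls, and the first lay within the control range. Its mean of 32.0 ± 6.05 TPM in shRor1 was 135% of the 23.7 ± 2.95 TPM in shCTL (SD, n = 3 each). On the log2 scale the difference was 0.41 with a standard error of 0.16, and 96.7% of the genes tested had no larger absolute value. It was positive in all 6 fits that left out 1 library, between 0.31 and 0.57, and was 0.35 after quantile normalization and 0.33 after median ratio scaling. ENSG00000237773, on the opposite strand of AHR, had at most 2.42 TPM. In bulk RNA, more cells with a transcript and more of it per cell cannot be told apart.

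ARNT (chromosome 1 from 150782189 to 150849075, minus strand), the partner AHR needs to bind DNA, had 19.40, 18.21 and 24.69 TPM in shCTL and 20.66, 18.43 and 21.25 TPM in shRor1. The shRor1 values lay inside the control range, and the log2 fold change was -0.03 (standard error 0.13). AHR and ARNT were thus near each other in shCTL, with a ratio of AHR to ARNT TPM of 1.15 ± 0.12 (SD, n = 3). In shRor1 the ratio was 1.61 ± 0.38 (SD, n = 3), and 1.22 in the library listed first, below the highest control of 1.29. ARNT2, a paralog of ARNT known mainly from the nervous system and kidney, had 4.34, 5.07 and 6.69 TPM in shCTL and 5.81, 4.14 and 6.08 TPM in shRor1. Its level was lower than that of ARNT in every library, with a mean ratio of ARNT to ARNT2 of 3.92 in shCTL and 3.83 in shRor1, and its log2 fold change was 0.00 (standard error 0.18). The microRNA gene hsa-mir-5572, on the same strand within ARNT2, was listed at 0 in all libraries, and both noncoding genes on the opposite strand had at most 0.83 TPM.

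AHRR, the repressor that competes with AHR for ARNT, had 2.77, 2.02 and 3.15 TPM in shCTL and 3.18, 2.07 and 2.53 TPM in shRor1. The groups covered almost the same range, and the log2 fold change was -0.02 (standard error 0.18). AHR exceeded AHRR from 7.52 to 11.6 times in the shCTL libraries and from 7.90 to 17.5 times in the shRor1 libraries. 
CYP1A1 (ENSG00000140465.9, chromosome 15 from 75011883 to 75017869, minus strand) encodes the P450 enzyme whose induction is the usual readout of AHR activity. It had 5.09, 3.78 and 4.64 TPM in shCTL and 4.66, 2.19 and 3.75 TPM in shRor1. The second shRor1 library, which had the most AHR of all 6, had the least CYP1A1, and the third shRor1 library lay just below the lowest control. Its mean of 3.53 ± 1.25 TPM in shRor1 was 78.5% of the 4.50 ± 0.67 TPM in shCTL (SD, n = 3 each). The difference on the log2 scale was -0.31 (standard error 0.22), opposite in sign to that of AHR. It was -0.49 without the first shRor1 library and -0.08 without the second. CYP1A2 is transcribed away from CYP1A1, with 23317 bases between their canonical starts. It had 0.38, 0.45 and 0.45 TPM in shCTL and 0.43, 0.39 and 0.45 TPM in shRor1, too low to be tested.

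CYP1B1 (ENSG00000138061.7, canonical transcript on chromosome 2 from 38294652 to 38303293, minus strand), a P450 that hydroxylates estradiol and polycyclic hydrocarbons, had 63.96, 29.45 and 32.03 TPM in shCTL and 57.80, 35.05 and 31.23 TPM in shRor1. In both groups the library listed first stood well above the others, and the groups overlapped over nearly their whole range. The mean was 41.8 ± 19.2 TPM in shCTL and 41.4 ± 14.4 TPM in shRor1 (SD, n = 3 each), with a log2 fold change of 0.02 (standard error 0.32). The direction turned with single libraries, from -0.24 without the first shRor1 library to 0.37 without the first shCTL library, and with scaling, to -0.02 after quantile normalization and -0.06 after median ratio scaling. Its spread within groups, an SD of 0.54 on the log2 scale, was not exceeded by 96.9% of the genes tested, and the median over all genes was 0.15. CYP1B1 exceeded CYP1A1 in every library, from 6.90 to 12.6 times in shCTL and from 8.33 to 16.0 times in shRor1. RMDN2-AS1, which shares exons with CYP1B1 on the same strand, had at most 0.38 TPM. On the opposite strand CYP1B1-AS1 had at most 1.93 TPM and RMDN2 at most 5.61 TPM, and whether the counting used the strand is not given in the sources used here.

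TIPARP (chromosome 3, canonical transcript from 156392379 to 156424559, plus strand), also called PARP7, is an ADP-ribosyltransferase that modifies AHR and limits its activity. It had 33.52, 24.29 and 27.02 TPM in shCTL and 36.16, 25.32 and 28.47 TPM in shRor1. The order of the libraries was alike in both groups, with the first highest and the second lowest. The log2 fold change was 0.08 (standard error 0.16), 0.03 after quantile normalization and 0.00 after median ratio scaling. Without the first shRor1 library it turned to -0.06, and without the second shCTL library to -0.02.

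NQO1 (ENSG00000181019.8, canonical transcript on chromosome 16 from 69743304 to 69760463, minus strand) had 586.05, 474.04 and 402.63 TPM in shCTL and 568.86, 450.37 and 381.73 TPM in shRor1. The libraries had the same order in both groups, and the spread between them was larger than the difference between the groups. The mean was 488 ± 92.5 TPM in shCTL and 467 ± 94.7 TPM in shRor1 (SD, n = 3 each), with a log2 fold change of -0.06 (standard error 0.18). Its sign turned where the first shCTL library (0.08) or the third shRor1 library (0.07) was left out. ENSG00000261602, on the opposite strand of NQO1, had at most 4.89 TPM.

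**Figure D3:**
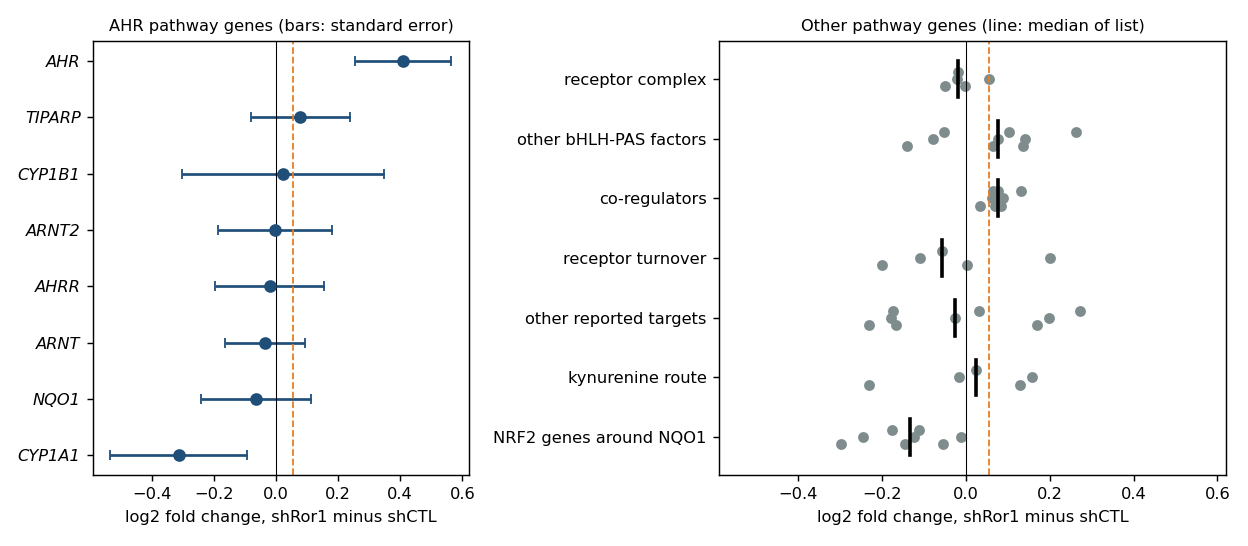
Log2 fold changes on the log2(TPM + 1) scale, shRor1 minus shCTL. Left, the 8 tested genes of the AHR group with standard errors from limma. Right, single genes of 7 lists of other pathway genes (points) with the median of each list (black line), and in both panels the dashed line marks the median of all 16554 genes, 0.05. AHR lies farthest to the right at 0.41 and CYP1A1 farthest to the left at -0.31.

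The other genes of the pathway were taken from 7 lists with 66 genes in all, of which 49 passed the expression filter. None of the 49 had an adjusted p below 0.05 (limma, smallest adjusted p 0.984). Without adjustment 1 had p below 0.05, higher in shRor1, where the background was 2.31% for higher and 0.544% for lower genes. After median ratio scaling this gene did not pass, and 1 gene of receptor turnover, lower in shRor1, did. Of the 49 log2 fold changes, 25 were positive and 24 negative, with a median of 0.00. The groups did not overlap for 1 of the 49 that was higher in shRor1 and for 2 that were lower. Over all genes tested, the share without overlap was 7.78% in either direction, 6.48% for higher and 1.3% for lower genes.

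The chaperone complex that holds AHR in the cytoplasm was abundant. HSP90AB1, a subunit of HSP90 and the most abundant gene of its list, had 1719 ± 164 TPM in shCTL and 1727 ± 264 TPM in shRor1 (SD, n = 3 each), and its log2 fold change was 0.00 (standard error 0.13). On the log2 scale HSP90AA1, the other cytoplasmic HSP90, differed by -0.02 with an error of 0.16, and PTGES3, which encodes p23, by 0.06 with an error of 0.13 (standard errors from limma). Among the 5 genes of receptor turnover, DDB1, an adaptor of CUL4 ubiquitin ligases, was the most abundant with 180 ± 3.02 TPM in shCTL and 173 ± 5.28 TPM in shRor1 (SD, n = 3 each). RBX1, the RING subunit of cullin ligases, had 56.0 ± 3.32 and 48.9 ± 6.61 TPM (SD, n = 3 each), a difference of -0.20 on the log2 scale with a standard error of 0.11, an adjusted p of 0.984 from limma and overlapping groups. Over the alternatives the RBX1 difference lay between -0.29, without the first shRor1 library, and -0.10, without the second. After median ratio scaling it was -0.28.

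Of the 12 other bHLH-PAS factors, 9 were tested, and HIF1A, the hypoxia factor that also pairs with ARNT, was the most abundant at 290 ± 13.9 TPM in shCTL and 320.4 ± 39.8 TPM in shRor1 (SD, n = 3 each). NPAS2, a partner of BMAL1 in the circadian clock, had 59.50, 55.14 and 63.00 TPM in shCTL and 71.18, 72.84 and 69.54 TPM in shRor1. Every shRor1 library lay above all controls, as for 6.48% of the genes tested. On the log2 scale NPAS2 differed by 0.26 (standard error 0.07), with an adjusted p of 0.984 from limma, so that it did not pass the correction. It stayed between 0.18 and 0.31 under the alternatives. NPAS2 was the list gene with an unadjusted p below 0.05 from limma, and after median ratio scaling it was not below that threshold. All 9 co-regulators tested had positive log2 fold changes, from 0.03 to 0.13 with a median of 0.08, where 11093 of all 16554 genes were positive with a median of 0.05. Of these co-regulators, 7 of 9 were positive after quantile normalization and 5 of 9 after median ratio scaling.

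Of the 18 other reported AHR targets, 9 were tested, with 4 positive and 5 negative log2 fold changes and a median of -0.03. UGT1A6 and GSTA2, conjugating enzymes of the classic AHR gene battery, were listed at 0 in all 6 libraries, and genes of the UGT1A cluster share exons, so reads may be divided between them. ALDH3A1, another member of that battery, had at most 0.51 TPM. SLC7A5, a transporter of large amino acids that also carries tryptophan and kynurenine, was the most abundant at 154 ± 18.9 TPM in shCTL and 135 ± 42.5 TPM in shRor1 (SD, n = 3 each). CYP2S1, another inducible P450, had 4.02, 4.07 and 3.72 TPM in shCTL and 3.66, 2.83 and 3.70 TPM in shRor1. The highest shRor1 value lay just below the lowest control, against 1.3% of the genes tested without overlap in this direction. CYP2S1 is named here because of these values, as 1 of 2 such genes among the 49 tested list genes. The enzymes that open the kynurenine route, from which AHR ligands are made, were near the floor. IDO1 had at most 0.05 TPM and IDO2 at most 0.47 TPM. TDO2 had 0.58, 0.54 and 0.52 TPM in shCTL and 0.70, 0.92 and 0.87 TPM in shRor1, too low to be tested. Its groups did not overlap, and TDO2 is named because of these values. The share in this direction was 6.48% of tested genes, which does not cover genes below the filter. KYNU, further along the route, had 27.1 ± 9.70 TPM in shCTL and 29.7 ± 8.42 TPM in shRor1 (SD, n = 3 each).

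NQO1 is also a target of NRF2, and 8 genes of that system were listed beside it: KEAP1, the inhibitor of NRF2, and the targets HMOX1, GCLM, GCLC, TXNRD1, SRXN1, SLC7A11 and OSGIN1. TXNRD1, a thioredoxin reductase and the most abundant of them, had 676.01, 499.32 and 389.55 TPM in shCTL and 653.58, 421.53 and 353.84 TPM in shRor1. As for NQO1, the library listed first was highest in both groups and the last one lowest. This held for 7 of the 8 NRF2 genes, all but KEAP1, against 5.05% of the genes tested. The library listed first was highest in both groups for all 8, and for CYP1A1, CYP1B1, TIPARP and NQO1 among the 8 AHR genes, against 13.6% of the genes tested. The third library was lowest in both groups for 1 of the 8 AHR genes, NQO1, against 13.2%. AHR was lowest in the library listed first in both groups. The pattern was noticed after the values were seen, and whether libraries at the same place in the table were prepared together is not given in the sources used here. Log2 fold changes of the 8 NRF2 genes were all negative, from -0.30 to -0.01 with a median of -0.13, also after quantile normalization and median ratio scaling. Of all 16554 genes, 5461 were negative before such scaling, 8202 after quantile normalization and 9170 after median ratio scaling. TXNRD1 turned to 0.06 without the first shCTL library and to 0.05 without the third shRor1 library. HMOX1, a heme oxygenase, had 6.12, 5.51 and 5.39 TPM in shCTL and 5.11, 4.98 and 3.88 TPM in shRor1, without overlap, as for 1.3% of the genes tested in this direction. HMOX1 differed by -0.24 on the log2 scale (standard error 0.13), or -0.14 without the third shRor1 library, with an adjusted p of 0.984 from limma, and no gene of this list passed the test. NFE2L2, which encodes NRF2, had 93.1 ± 3.60 TPM in shCTL and 95.2 ± 4.60 TPM in shRor1 (SD, n = 3 each).

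**Figure D4:**
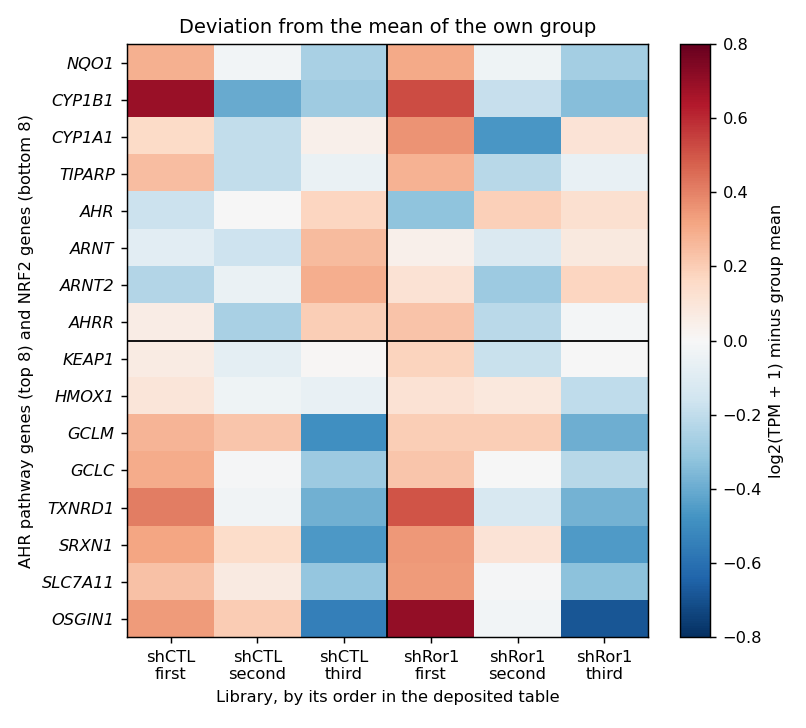
Deviation of each library from the mean of its own group on the log2(TPM + 1) scale, for the 8 tested AHR genes (top) and the 8 NRF2 genes (bottom). Columns are libraries in their order in the deposited table, red is above and blue below the group mean. The first column of each group is red for NQO1, CYP1B1, CYP1A1, TIPARP, AHRR and all 8 NRF2 genes, and blue for AHR.

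The genes whose profile over the 6 libraries was most like that of AHR, among 11144 other genes with a mean of at least 5 TPM, were PPP2R5B (Pearson r = 0.996 over 6 libraries), SOX9 (r = 0.995) and ENSG00000188206 (r = 0.994). SOX9, a transcription factor, had 28.76, 31.11 and 35.09 TPM in shCTL and 32.55, 44.08 and 40.89 TPM in shRor1, the same order of libraries as AHR. For CYP1B1 they were the long noncoding RNA LINC01234 (r = 0.992), DHX35 (r = 0.982) and GARS1 (r = 0.98), each highest in the first library of both groups. The 6 points include both groups and the shared differences between libraries, so these are descriptions only. The values are also the highest among 11144 genes, and with 6 points such high ones can arise from that selection alone.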

How the data were processed

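RNA-seq libraries of 6 samples, 3 shCTL and 3 shRor1, were compared. The labels name polyA RNA, while the methods of the study name a stranded total RNA kit, and the sources used here do not settle which was sequenced. Reads were single, over 50 bases. The authors mapped reads to GRCh37 with STAR and the Ensembl annotation, and estimated abundances with RSEM 1.2.5. The deposited values are TPM (each column sums to about 1000000), although the table is named for expected counts. TPM holds no depth, so no counting interval can be given. The count model of the authors could therefore not be fitted, and limma 3.58.1 in R 4.3.3 was used on log2(TPM + 1) for 16554 of 57445 genes (at least 1 TPM in at least 3 libraries), with a trended prior variance and adjustment by Benjamini-Hochberg at 0.05. The fit was tested on simulated data with independent noise in each gene and added log2 differences larger than that of AHR. The simulation held no differences between libraries shared by many genes. It does not show how well smaller differences are recovered.

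The genes and lists were chosen with earlier results of these data known. Named are the 9 genes, ROR1, the most abundant gene of each list (1 is not reported here), the 3 list genes with the smallest p, the 3 most similar profiles for AHR and CYP1B1, and genes overlapping a member. Other list members are named for their role, and CYP2S1 and TDO2 after their values were seen. Symbols matched 55022 identifiers, and older symbols (ARNTL, ARNTL2) were matched through RefSeq synonyms. Coordinates are from GENCODE, lifted to GRCh37, and RefSeq promoters are on GRCh38.p14. The wider 1500-base window was chosen after seeing the data, and protein sequences were not used here. Nothing states that libraries came from separate cultures, so p-values measure only the spread between these libraries. At most 0.483% of tested genes had identical values in a pair of libraries. All per-sample columns were used.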

Additional observations from a re-analysis of the deposited data

How the results depend on the processing

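No paired analysis was possible because the 6 libraries are not numbered in the table. The alternatives were a pseudocount of 0.1, no filter, a mean of at least 5 TPM, quantile normalization, median ratio scaling, no mean-variance trend, protein-coding genes only, sums over genes that share exons, and each library left out in turn.

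Of all genes, 0 were called by limma under each of these, except that leaving out libraries gave from 0 to 1 (RPL39P3, without the third shRor1 library). Genes at an unadjusted p below 0.05 numbered 472, but 1363 without a filter, 227 at a mean of 5 TPM, 203 among protein-coding genes, and from 278 (without the second shCTL library) to 1720 (without the first shRor1 library), with 289 without the first shCTL library. The share of these that were higher in shRor1 was 80.9%, but 53.9% after quantile normalization and 50.3% after median ratio scaling. Of the other pathway genes, 0 were called under each alternative. At an unadjusted p below 0.05 there was 1, but 7 without the first shRor1 library and 2 without the first shCTL library.

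AHR, CYP1A1, ROR1, NPAS2, HMOX1 and RBX1 kept the sign of their log2 fold change under every alternative that gave a value. All alternatives reuse the same 6 libraries, and NPAS2, HMOX1 and RBX1 were picked for the smallest p in the main fit. A kept sign is thus no independent support, and the share of all genes that keep theirs was not computed. CYP1B1 changed sign under 5 of 14, AHRR under 3 of 13, and ARNT, ARNT2, TIPARP and NQO1 under 2 of 14 each, as did TXNRD1.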
